A study of Homo sapiens with 4 samples.

Results

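Expression of 10 genes that restrain WNT signaling was compared between HCT116-MT and HCT116-WT cells: *DKK1*, *NOTUM*, *RNF43*, *ZNRF3*, *NKD1*, *AXIN2*, *AXIN1*, *APC*, *GSK3B* and *CSNK1A1*. The genes were taken as a list of the WNT feedback inhibitors and of the core components of the β-catenin destruction complex, and their probes were found by gene symbol. All 10 were on the Illumina HumanHT-12 v4 BeadChip, with 15 of its 47321 probes, among 20046 named genes.

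HCT116 is a human colorectal cancer cell line whose parental cells carry 1 wild-type and 1 mutant allele of *CTNNB1*, the β-catenin gene. In HCT116-MT cells the remaining allele is the mutant one, which lacks a serine in the amino-terminal degradation signal, and in HCT116-WT cells it is the wild-type one; in each line the other allele was disrupted. Each genotype was thus represented by a single purchased derivative of 1 cancer cell line. Both lines were grown without treatment in RPMI medium with serum and antibiotics, and total RNA of 2 HCT116-MT and 2 HCT116-WT samples was hybridized. Whether replicates 1 and 2 were separate cultures is not given in the labels, so the p-values below measure the spread between these arrays, which may be technical.

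In the absence of WNT, *AXIN1* or *AXIN2* and *APC* hold β-catenin close to the kinases encoded by *CSNK1A1* and *GSK3B*. Casein kinase 1α phosphorylates the serine that the HCT116-MT allele lacks, which primes β-catenin for GSK3β, ubiquitination and degradation. Stabilized β-catenin enters the nucleus and, with TCF/LEF factors, activates target genes, several of which encode inhibitors of the same pathway. In the intestinal epithelium, *AXIN2*, *NKD1*, *NOTUM*, *RNF43* and *ZNRF3* are well-known examples of such feedback.

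The promoter of *DKK1*, one of the secreted inhibitors, is shown with that of *AXIN1* because they illustrate a member with and a member without a TCF/LEF core match immediately upstream of the start site. The RefSeq promoter table (GRCh38.p14) held 6 members: *DKK1*, *RNF43*, *AXIN1*, *APC*, *GSK3B* and *CSNK1A1*. The 250 bases before each start site were searched on both strands for the core CTTTG followed by AA, AT, TA or TT, and the capitals below mark the matches. The *DKK1* promoter lies at chr10:52314031-52314280 on the plus strand, and the *AXIN1* promoter at chr16:352724-352973 on the minus strand.
DKK1: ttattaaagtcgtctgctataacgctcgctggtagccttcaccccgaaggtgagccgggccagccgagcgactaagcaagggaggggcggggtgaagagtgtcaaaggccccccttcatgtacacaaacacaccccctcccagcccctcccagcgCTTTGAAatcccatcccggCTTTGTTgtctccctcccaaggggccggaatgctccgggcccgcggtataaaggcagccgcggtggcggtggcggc
AXIN1: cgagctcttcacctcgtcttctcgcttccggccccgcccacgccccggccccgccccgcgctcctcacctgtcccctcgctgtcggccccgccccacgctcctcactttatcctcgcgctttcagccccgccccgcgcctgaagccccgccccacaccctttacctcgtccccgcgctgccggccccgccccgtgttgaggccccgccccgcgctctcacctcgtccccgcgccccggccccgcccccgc
The *DKK1* window held the form ending in AA at positions -95 to -89 and the form ending in TT at positions -76 to -70 from the start site. The windows of the other 5 genes held no match. At least 1 match was found in 12% of all 35116 promoters of the same length, and a match of letters is not a binding site.

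Each value below is an intensity, the deposited brightness of a probe before normalization, given for replicates 1 and 2 of each line. Differences are log2 differences, HCT116-MT minus HCT116-WT, after quantile normalization, each with its standard error (SE), tested with limma over the 20579 probes detected (detection p under 0.05) on at least 2 of 4 arrays. Rose and fell are used of genes past both thresholds of the study, which are 0.05 for the p before adjustment and a fold change over 1.5. Adjusted p-values are Benjamini-Hochberg values over all 20579 probes, and 2 probes (0.00972%) had an adjusted p under 0.05, neither of a member, while 6.24% were past the thresholds of the study. An exact permutation of 2 arrays against 2 cannot give a p below 0.333.

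The arrays were similar in the number of probes detected: 19604 and 20030 probes (41.4% and 42.3%) on the HCT116-MT arrays, and 19766 and 20101 (41.8% and 42.5%) on the HCT116-WT arrays. The median gap between the replicates of a line was 0.20 on the log2 scale in HCT116-MT and 0.24 in HCT116-WT. Over the probes tested, the HCT116-MT replicates correlated at 0.98 and the HCT116-WT replicates at 0.965. Arrays of different lines correlated at 0.964 to 0.969, so the HCT116-WT replicates were about as far apart as arrays of different lines. *EPCAM*, *CDH1*, *KRT8*, *KRT19* and *CDX2*, among 10 markers of colon epithelium, were detected on all 4 arrays, while *CDH17*, *KRT18*, *LGALS4* and *VIL1* were detected on none. The summed intensity of those 10 markers was 18276 and 20025 on the HCT116-MT arrays, against 38781 and 28645 on the HCT116-WT arrays, and *CDH1* and *EPCAM* fell; the part of this difference in the results below was not tested. Of the markers of other cell types on the array, 2 of 5 for leukocytes (*PTPRC*, *CD3E*), 4 of 5 for endothelium (*PECAM1* among them) and 3 of 6 for fibroblasts (*COL1A2*, *COL3A1*, *LUM*) were detected on no array, while *VWF*, *COL1A1* and *PDGFRB* were detected on all 4. The altered gene itself, *CTNNB1*, differed by 0.29 by its brightest probe (SE 0.20, 95% interval -0.21 to 0.79, adjusted p = 0.745, limma). Its other tested probe (ILMN_1757350) differed by 0.39 (SE 0.20, 95% interval -0.10 to 0.88, adjusted p = 0.632, limma), and its remaining probes did not pass the detection filter. The data tie no probe to a single allele.

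Of the 10 genes, 8 had a detected probe and could be tested. *AXIN2* and *NKD1* rose in HCT116-MT cells and none fell, so that 2 of 8 members were past the thresholds upward. Of all 11875 genes tested, 3.48% were past them upward and 3.86% downward, 7.33% in all. The members were chosen with earlier results of these data known, so the count is a description and no excess can be read from it. The mean was higher in HCT116-MT cells for 7 of the 8 and lower for *GSK3B*, where 50% of all genes tested had a higher mean. However, *NOTUM*, *ZNRF3* and *AXIN1* changed sign under at least 1 other scaling. *CSNK1A1* changed sign without HCT116-WT replicate 2 (-0.05), and a further probe of it was lower in HCT116-MT (-0.23). The median of the 8 differences was 0.18, against 0 over all genes. *AXIN2* and *NKD1* were also the only 2 of the 8 whose lines did not overlap after normalization, a share near the background, since 20.7% of all genes tested lay wholly higher in HCT116-MT and 19.1% wholly lower. The plot of intensities by array shows all members before normalization.

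**Figure D1:**
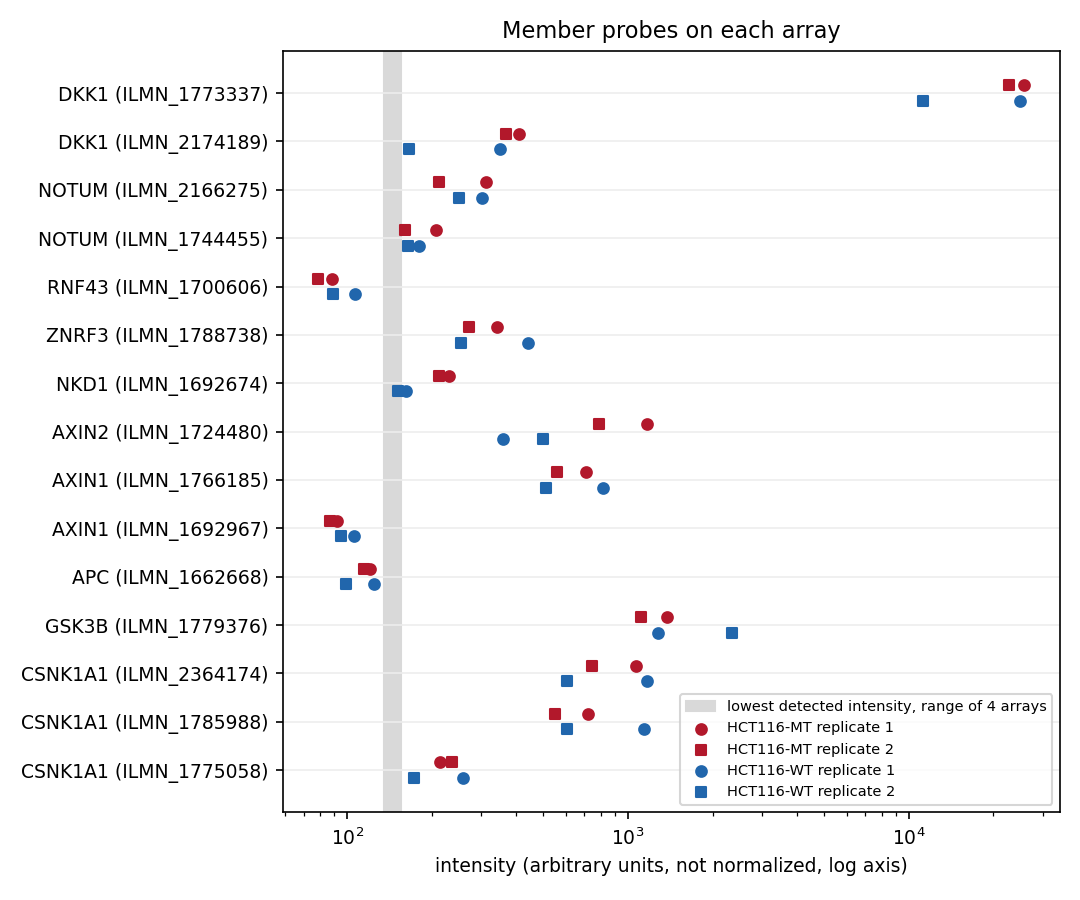
Intensity (arbitrary units, log axis) of the 15 member probes on the 2 HCT116-MT arrays (red) and the 2 HCT116-WT arrays (blue), with the range of the lowest detected intensity as a grey band. The *AXIN2* points lie at 1167 and 791 in HCT116-MT and at 359 and 497 in HCT116-WT, while *RNF43* and *APC*, detected on no array, lie between 79.0 and 125.

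*DKK1* encodes a secreted protein that binds the co-receptors LRP5 and LRP6 and so keeps WNT from using them. Its brighter probe (ILMN_1773337) had an intensity of 25802 and 22686 in HCT116-MT, against 24794 and 11244 in HCT116-WT, the highest intensities of all members. A single array, HCT116-WT replicate 2, stood below the other 3, and the lines overlapped. The difference was 0.54 (SE 0.35, 95% interval -0.32 to 1.41, adjusted p = 0.712, limma). The gap between the HCT116-WT replicates, 1.02 on the log2 scale, was larger than in 95.7% of probes tested, against a gap of 0.13 in HCT116-MT. Without HCT116-WT replicate 2 the difference was 0.04, and without HCT116-WT replicate 1 it was 1.05, past the thresholds.

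A second, much dimmer *DKK1* probe (ILMN_2174189) had an intensity of 409 and 369 in HCT116-MT, against 350 and 166 in HCT116-WT. Both HCT116-MT arrays lay above both HCT116-WT arrays, with the same array lowest as for the brighter probe. This probe was past the thresholds, with a difference of 0.86 (SE 0.29, 95% interval 0.13 to 1.59, adjusted p = 0.467, limma). It was no longer past them without HCT116-WT replicate 2, at 0.45, without either HCT116-MT array, under median scaling (0.76), without normalization (0.69) or in the methods' t-test, a test without moderated variances that the study lists among its general methods, without tying it to the array data. The 2 probes of *DKK1* therefore differed in their call, and the gene is counted by the brighter one.

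*NOTUM* encodes a secreted enzyme that removes the lipid from WNT ligands. Its brighter probe (ILMN_2166275) had an intensity of 312 and 212 in HCT116-MT, against 303 and 251 in HCT116-WT. The lines overlapped, and the difference was 0.05 (SE 0.21, 95% interval -0.48 to 0.57, adjusted p = 0.978, limma), with the sign turned under median scaling (-0.03), without normalization (-0.10) and without HCT116-MT replicate 1 (-0.18). The second probe (ILMN_1744455) had 207 and 161 in HCT116-MT, against 180 and 165 in HCT116-WT, overlapping before but not after normalization, with a difference of 0.19 (95% interval -0.27 to 0.65). The intervals of both probes leave room for a change of up to 0.65 upward, so that equal expression was not shown.

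*RNF43* and *ZNRF3* encode membrane ubiquitin ligases that remove Frizzled receptors from the cell surface. The *RNF43* probe (ILMN_1700606) had an intensity of 88.5 and 79.0 in HCT116-MT, against 107 and 89.4 in HCT116-WT. Its detection p was 0.796 and 0.921 in HCT116-MT, and 0.458 and 0.764 in HCT116-WT. Its intensities lay below the lowest detected intensity of each array (145 and 135 in HCT116-MT, 155 and 139 in HCT116-WT), so that *RNF43* was not detectable with this probe and no difference is given.

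The *ZNRF3* probe (ILMN_1788738) was detected, with an intensity of 342 and 272 in HCT116-MT, against 440 and 255 in HCT116-WT. The 2 HCT116-WT arrays enclosed both HCT116-MT arrays. The difference was 0.04 (SE 0.23, 95% interval -0.53 to 0.61, adjusted p = 0.983, limma) and had no settled sign, being below 0 under median scaling, cyclic loess and no normalization.

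*NKD1* encodes a cytoplasmic protein that binds Dishevelled and dampens the signal downstream of the receptor. Its probe (ILMN_1692674) had an intensity of 230 and 212 in HCT116-MT, against 161 and 152 in HCT116-WT. Both HCT116-MT arrays lay above both HCT116-WT arrays, and the replicates were close, with gaps of 0.01 in HCT116-MT and 0.06 in HCT116-WT on the log2 scale after normalization. *NKD1* rose by 0.60 (SE 0.17, 95% interval 0.19 to 1.02, adjusted p = 0.421, limma), a 1.52-fold higher level with an interval of 1.14 to 2.02. These are dim signals: the detection p was 0.00519 and 0.0039 in HCT116-MT, and 0.039 and 0.0273 in HCT116-WT. The fold lay at the edge of the threshold, and *NKD1* was no longer past it under median scaling (0.56), without normalization (0.50) and without HCT116-WT replicate 1 (0.57), nor past the p threshold without either HCT116-MT array. With background correction from the negative controls (neqc) the difference was 1.16.

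*AXIN2* encodes a scaffold of the destruction complex and is the most widely used readout of β-catenin/TCF activity. Its probe (ILMN_1724480) had an intensity of 1167 and 791 in HCT116-MT, against 359 and 497 in HCT116-WT. Normalized log2 values were 10.18 and 9.79 in HCT116-MT, and 9.07 or less in HCT116-WT, where replicate 1 had 8.27. The lines did not overlap, although the replicates were far apart. The gap was 0.80 in HCT116-WT, larger than in 91.9% of probes tested, and 0.40 in HCT116-MT, larger than in 79.8%.

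*AXIN2* rose by 1.32 (SE 0.31, 95% interval 0.54 to 2.09, adjusted p = 0.398, limma), a 2.49-fold higher level with an interval of 1.45 to 4.26. This was the largest difference among the members, and 99.4% of the 20579 probes had a smaller absolute difference. The difference ranged over the 14 alternatives between 0.92, without HCT116-WT replicate 1, and 1.71, without HCT116-WT replicate 2, with adjusted p-values between 0.11 and 1. *AXIN2* remained past the thresholds in 13 of the 14, the exception being the methods' t-test.

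*AXIN1*, the constitutively expressed scaffold related to *AXIN2*, was not past the thresholds. Its detected probe (ILMN_1766185) had an intensity of 707 and 559 in HCT116-MT, against 812 and 509 in HCT116-WT. Before normalization the HCT116-WT arrays lay on either side of the HCT116-MT arrays, and after it the lines overlapped with HCT116-MT replicate 1 highest. The difference was 0.13 (SE 0.20, 95% interval -0.36 to 0.62, adjusted p = 0.898, limma), with the sign turned without normalization (-0.03) and without HCT116-WT replicate 2 (-0.02). A second *AXIN1* probe (ILMN_1692967) was detected on no array. The difference between the changes of *AXIN2* and *AXIN1* was not tested.

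*APC*, the scaffold that is lost in most colorectal cancers, was not detectable with its probe on this array, which does not show that its RNA was absent. Its probe (ILMN_1662668) had an intensity of 121 and 115 in HCT116-MT, against 125 and 99.1 in HCT116-WT, below the lowest detected intensity of each array. The detection p was 0.171 and 0.196 in HCT116-MT, and 0.19 and 0.526 in HCT116-WT. *APC* and *RNF43* were thus the 2 of 10 members whose probes were not above background on any array.

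*GSK3B* encodes the kinase that marks β-catenin for ubiquitination. Its probe (ILMN_1779376) had an intensity of 1376 and 1116 in HCT116-MT, against 1279 and 2349 in HCT116-WT. HCT116-WT replicate 2 stood above the other 3 arrays, and the lines overlapped. The difference was -0.35 (SE 0.43, 95% interval -1.41 to 0.71, adjusted p = 0.864, limma), the widest interval among the members. The HCT116-WT replicates differed by 1.32 on the log2 scale, more than in 98.1% of probes, and those of HCT116-MT by 0.14. Without HCT116-WT replicate 1 the difference was -1.01 and past the thresholds, and without HCT116-WT replicate 2 it was 0.31.

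*CSNK1A1* encodes the priming kinase, casein kinase 1α. Its brightest probe (ILMN_2364174) had an intensity of 1065 and 744 in HCT116-MT, against 1173 and 605 in HCT116-WT. Before normalization the HCT116-WT arrays again enclosed the HCT116-MT arrays, and after it the lines overlapped with HCT116-MT replicate 1 highest. The difference was 0.24 (SE 0.26, 95% interval -0.40 to 0.88, adjusted p = 0.845, limma), turning to -0.05 without HCT116-WT replicate 2.

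The other 2 *CSNK1A1* probes did not share one sign. ILMN_1785988 had 719 and 551 in HCT116-MT, against 1143 and 605 in HCT116-WT, with a difference of -0.23 (95% interval -0.82 to 0.36). ILMN_1775058 had 214 and 237 in HCT116-MT, against 258 and 173 in HCT116-WT, with a difference of 0.24 (95% interval -0.28 to 0.76). None of the 3 probes was past the thresholds. The plot of differences sets the 12 member probes side by side.

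**Figure D2:**
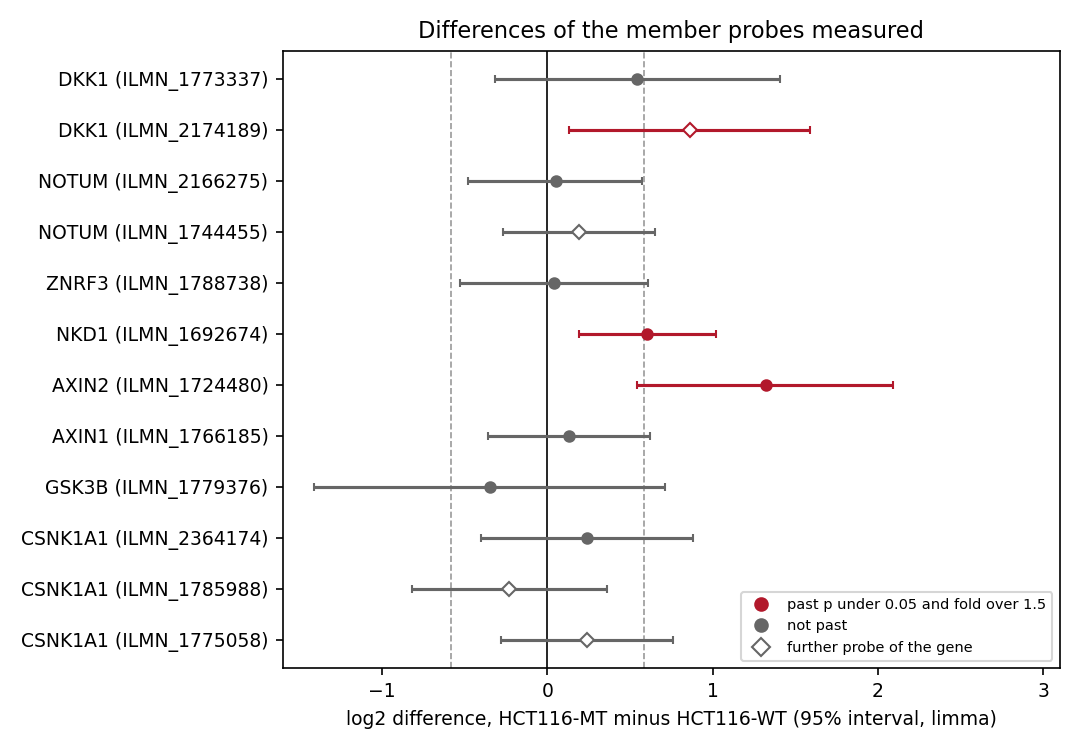
Log2 difference, HCT116-MT minus HCT116-WT, of the 12 member probes tested, with 95% intervals from limma, where dashed lines mark a fold change of 1.5. *AXIN2*, at 1.32, and *NKD1*, at 0.60, are the genes past the thresholds, with the dimmer *DKK1* probe at 0.86 as a further probe.

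The effect of single arrays differed between members. The differences without 1 array lay between 0.92 and 1.71 for *AXIN2* and between 0.57 and 0.64 for *NKD1*. They spanned 0.04 to 1.05 for *DKK1* and -1.01 to 0.31 for *GSK3B*, the 2 members with the widest gaps between the HCT116-WT arrays. For *NOTUM*, *ZNRF3*, *AXIN1* and *CSNK1A1* the span crossed 0. In this bulk RNA, a higher intensity from more cells that express a gene and from more RNA per cell cannot be told apart.

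**Figure D3:**
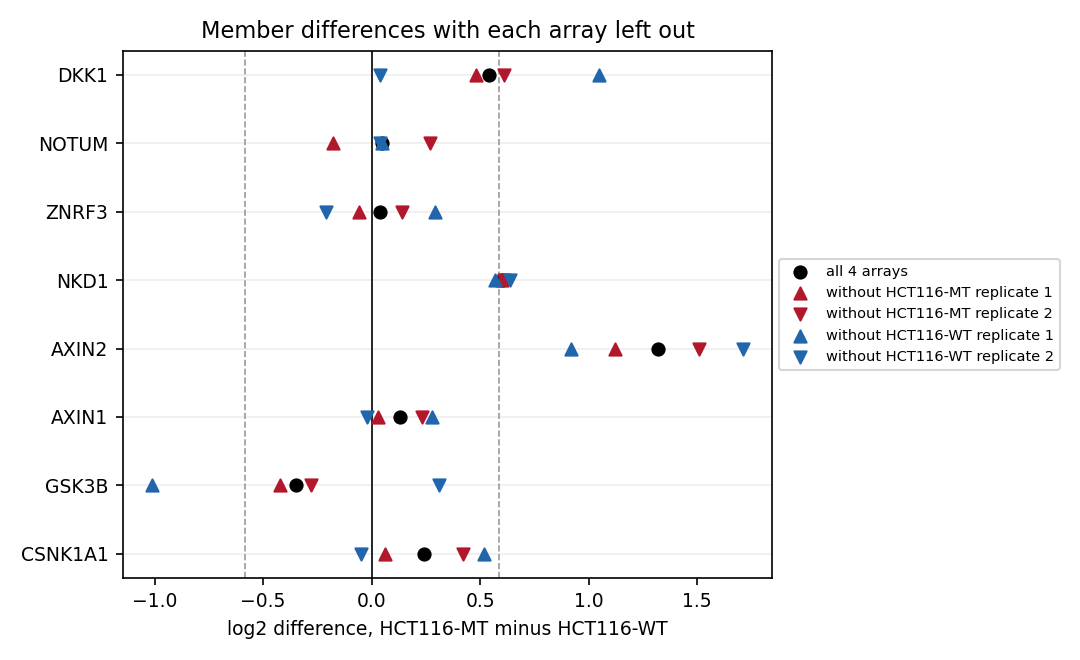
Log2 difference, HCT116-MT minus HCT116-WT, of the 8 member genes tested, with all 4 arrays and with each array left out in turn (dashed lines, a fold change of 1.5). All values of *AXIN2* (0.92 to 1.71) and *NKD1* (0.57 to 0.64) are above 0, whereas *GSK3B* spans -1.01 to 0.31.

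The remaining genes of the destruction complex and of β-catenin turnover were measured in the same way. Of 20 listed genes, 17 were measured, and none was past the thresholds, where 7.33% of all genes tested were. A list of this size can hold none at that share. Of the 17, 10 had a higher and 7 a lower mean in HCT116-MT, with a median difference of 0.06. The smallest unadjusted p belonged to *CSNK1D*, which encodes casein kinase 1δ, with an intensity of 1819 and 1578 in HCT116-MT, against 2958 and 2331 in HCT116-WT. Its lines did not overlap, and the difference of -0.53 (SE 0.17, adjusted p = 0.451, limma) missed the fold threshold except without normalization. *SKP1*, an adaptor of the ubiquitin ligase that takes up phosphorylated β-catenin, followed with 2160 and 2119 in HCT116-MT, against 1902 and 1477 in HCT116-WT, a difference of 0.46 (SE 0.17, adjusted p = 0.505, limma) that also missed it.

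Of 22 other WNT inhibitors, only 9 were measured, of which 3 had a higher and 6 a lower mean in HCT116-MT. The Dickkopf genes *DKK2*, *DKK3* and *DKK4* had no probe past the detection filter. Nor did *SFRP1*, *SFRP2*, *SFRP4* and *SFRP5*, which encode secreted Frizzled-related proteins, so the counts do not cover these genes. None was past the thresholds, where 7.33% of all genes tested were, and a list of 9 can hold none at that share. *TRABD2A*, which encodes a membrane protease that inactivates WNT ligands, had 140 and 148 in HCT116-MT, against 233 and 164 in HCT116-WT (difference -0.33, adjusted p = 0.682, limma). *TRABD2A* was not detected on HCT116-MT replicate 1. Both *TRABD2A* and *FRZB* gave dim signals and were not kept when the detection p had to be under 0.01. *FRZB*, a secreted WNT-binding protein, had 156 and 156 in HCT116-MT, against 172 and 326 in HCT116-WT, with a difference of -0.53 (adjusted p = 0.746, limma). Its value rested on HCT116-WT replicate 2, since the difference was 0.03 without that array and -1.08, past the thresholds, without HCT116-WT replicate 1.

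Among 42 WNT ligands, receptors and secretion genes, 41 were on the array and 27 were measured. Of these 2 fell and none rose, a count near the background of 3.86% of all genes lower and 7.33% past the thresholds in all, and the median difference was -0.08. *ROR1*, a receptor tyrosine kinase that binds WNT5A, had 125 and 137 in HCT116-MT, against 267 and 249 in HCT116-WT, with no overlap, and was detected on 1 of the 2 HCT116-MT arrays. *ROR1* fell by 0.87 (SE 0.18, adjusted p = 0.359, limma) and was past the thresholds under every alternative run. *FZD3*, a Frizzled receptor, had 177 and 228 in HCT116-MT, against 433 and 281 in HCT116-WT. It fell by 0.64 (SE 0.24, adjusted p = 0.514, limma), and was no longer past the thresholds without HCT116-MT replicate 1 (-0.39) or HCT116-WT replicate 1 (-0.47).

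The list of textbook targets of β-catenin and TCF overlaps the members. Without them, 13 of 21 genes on the array were measured, of which 2 rose, 3 fell and 8 were not past the thresholds, where 3.48% of all genes tested rose and 3.86% fell. The median difference of the 13 was -0.03. *BMP4*, a secreted growth factor, had 410 and 217 in HCT116-MT, against 110 and 123 in HCT116-WT, where it was detected on neither array. *BMP4* rose by 1.45 (SE 0.3, adjusted p = 0.357, limma), and by 1.05 without HCT116-MT replicate 1. The mean of the HCT116-MT arrays was 2.19-fold above the lowest detected signal of the HCT116-WT arrays. This fold leaves out the spread between the arrays and is not a lower limit of the change. *SP5*, a transcription factor induced by β-catenin, had 340 and 219 in HCT116-MT, against 160 and 164 in HCT116-WT. It rose by 0.86 (SE 0.23, adjusted p = 0.421, limma), though not past the thresholds without HCT116-MT replicate 1 (0.60). Its HCT116-WT intensities were near the lowest detected intensities of those arrays (155 and 139), and with neqc the difference was 1.5.

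The 3 targets that fell were *SOX9*, *CD44* and *PLAUR*, which are named here after their values were seen. *SOX9*, a transcription factor of the crypt base, had 1905 and 1128 in HCT116-MT, against 3020 and 2657 in HCT116-WT (difference -0.84, SE 0.25, adjusted p = 0.434, limma). *CD44*, an adhesion receptor for hyaluronan, had 4758 and 5072 in HCT116-MT, against 12847 and 6789 in HCT116-WT (difference -0.88, SE 0.27, adjusted p = 0.442, limma). *PLAUR*, the urokinase receptor, had 909 and 710 in HCT116-MT, against 2085 and 988 in HCT116-WT (difference -0.70, SE 0.27, adjusted p = 0.513, limma). The lines did not overlap for any of the 3, and 19.1% of all genes tested also lay wholly lower in HCT116-MT. Since the 3 were named for being past the thresholds, this adds no separate support. Further probes gave mixed calls. For *CD44*, ILMN_2348788 was past the thresholds (-0.92) and ILMN_1778625 was not (-0.50). For *PLAUR*, neither ILMN_1691508 (-0.48) nor ILMN_2408543 (-0.61) was past them. The count of 3 thus rests on the brightest probe of each gene. Each lost its call without at least 1 array: *SOX9* without HCT116-MT replicate 2 (-0.54) or HCT116-WT replicate 2 (-0.73), *CD44* without HCT116-MT replicate 1 (-0.76) or HCT116-WT replicate 1 (-0.54), and *PLAUR* without HCT116-MT replicate 1 (-0.80) or 2 (-0.61) or HCT116-WT replicate 1 (-0.37). *PLAUR* was also not past the thresholds with neqc (-0.77), under median scaling (-0.77), without normalization (-0.84) and with a mean-variance trend in limma. In the methods' t-test *BMP4*, *SP5*, *SOX9*, *CD44*, *PLAUR* and *FZD3* were not past them. The plot by list shows that the targets past the thresholds lay on both sides of 0.

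**Figure D4:**
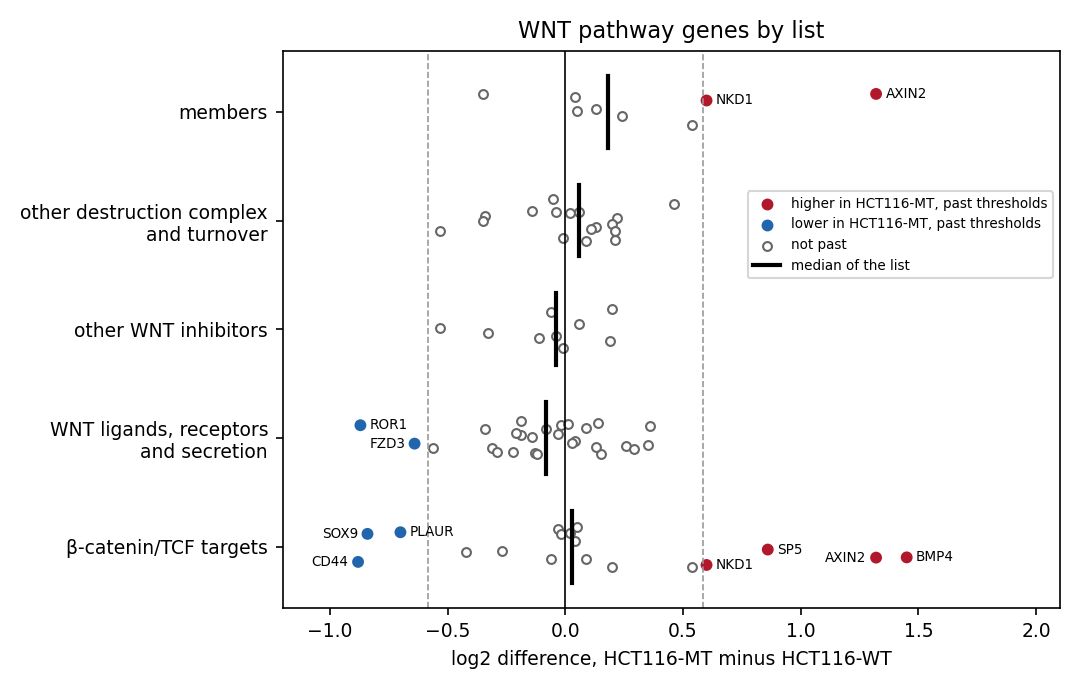
Log2 difference, HCT116-MT minus HCT116-WT, of the brightest probe of each measured gene of the members and of 4 further WNT lists, with the median of each list as a bar and dashed lines at a fold change of 1.5. Filled points are past the thresholds: *AXIN2*, *NKD1*, *BMP4* and *SP5* on the higher side, and *ROR1*, *FZD3*, *SOX9*, *CD44* and *PLAUR* on the lower side.

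The genes whose 4 values were most like those of *AXIN2* were *CMTM1*, *MID1*, *DPYSL4*, *GAS6* and *NOA1*. Likeness was the Euclidean distance between normalized log2 values centred on the mean of the 4 arrays, over 11874 other genes, and it was 0.13 for *CMTM1*, 0.17 for *MID1*, 0.34 for *DPYSL4*, 0.40 for *GAS6* and 0.41 for *NOA1*. *CMTM1*, a chemokine-like membrane protein gene, had 725 and 525 in HCT116-MT, against 247 and 328 in HCT116-WT. *MID1*, which encodes a ubiquitin ligase of microtubules, had 1751 and 1352 in HCT116-MT, against 578 and 844 in HCT116-WT. Both showed the order of arrays seen for *AXIN2*, highest in HCT116-MT replicate 1 and lowest in HCT116-WT replicate 1. These genes were chosen for this pattern on the same 4 arrays, which share all technical effects, and the likeness is a description.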

How the data were processed

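Gene expression was measured on HumanHT-12 v4 BeadChips in 2 HCT116-MT and 2 HCT116-WT samples, grouped by their labels. The values deposited by the authors came from GenomeStudio and are an intensity for every probe, without normalization between arrays. A deposited detection p-value stands beside each intensity. The methods state quantile normalization and thresholds on p and fold change; the integrated statistical method they cite is not described, so limma stood in for it. The genome build behind the authors' probe annotation was not given in the sources used here; the promoters shown come from the RefSeq table of GRCh38.p14.

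Intensities were put on the log2 scale, quantile-normalized and tested with limma 3.58.1 in R 4.3.3 (HCT116-MT minus HCT116-WT, no covariate), over probes with a detection p under 0.05 on at least 2 of 4 arrays, and p-values were adjusted by the Benjamini-Hochberg method. The brightest kept probe stood for a gene. Probes were named from the platform annotation, by which 30112 had 1 gene symbol, 8 several and 17201 none. The fit was tested on simulated data. With 2 arrays per line, the number of arrays limits the precision. Alternatives changed the background correction, normalization, detection filter, test, replicate block, probe rule and arrays used.

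The members and lists were chosen with earlier results of these data known, so their counts are a description. Named were all members, *CTNNB1*, of each list up to 4 genes past the thresholds with the smallest p (2 where none passed) and the 5 genes most like *AXIN2*; in the target list these 4 included *AXIN2* and *NKD1*, and *SOX9*, *CD44* and *PLAUR* were named outside this rule, after their values were seen. Fibroblast, leukocyte and endothelial marker lists had summed intensities of 997 and 1013, 672 and 634, and 560 and 500 in HCT116-MT, against 1115 and 1049, 666 and 636, and 615 and 534 in HCT116-WT. The deposited series table, whose intensity values stood under other probe IDs in part, was used only to compare IDs.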

Additional observations from a re-analysis of the deposited data

How the results depend on the processing

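Of all probes tested, 1285 were past the thresholds, 50.4% of them higher in HCT116-MT. That share was 34.7% under median scaling, 40.4% under cyclic loess and 18.4% without normalization, where the median difference of all genes was -0.12. Under the methods' t-test, which they name in general and not for the arrays, 485 probes were past the thresholds, and 1 probe in each direction had an adjusted p under 0.05. Without 1 array the count was 788 to 2490. The count of members past the thresholds was 1 under median scaling, without normalization and under the methods' t-test, and 1 to 3 without 1 array. The count was 1 for the other destruction complex genes without normalization (*CSNK1D*), 0 to 1 for the other inhibitors without 1 array, 1 for ligands and receptors under the methods' t-test and 1 to 4 without 1 array, and 1 for the targets, members included (7 with all arrays), under the methods' t-test and 3 to 6 without 1 array.

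*NOTUM* was -0.03 under median scaling and -0.10 without normalization, and -0.18 to 0.27 without 1 array. *ZNRF3* was -0.07 under median scaling, -0.01 under cyclic loess and -0.13 without normalization, and -0.21 to 0.29 without 1 array. *NKD1* was 0.56 under median scaling, 0.50 without normalization and 0.57 to 0.64 without 1 array. *AXIN1* was -0.03 without normalization and -0.02 to 0.28 without 1 array. *AXIN2* was 1.32 and no longer past the thresholds under the methods' t-test, and 0.92 to 1.71 without 1 array. Without 1 array, *DKK1* was 0.04 to 1.05 by its brighter probe and 0.45 to 1.27 by the dimmer one, *GSK3B* -1.01 to 0.31, *CSNK1A1* -0.05 to 0.52, and its probe ILMN_1785988 -0.50 to 0.03. With 1 array left out, the lone array of its line is assumed to vary like those of the other line. The cause of these changes was not tested.

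Over the probes tested, the deviations of same-numbered samples from their line means correlated at only 0.05, so the numbers were not taken to pair the samples. With the replicate block 1418 probes were past the thresholds, *AXIN2* was 1.32, and 1 gene of the ligand and receptor list, not *FZD3*, was past them. The probes of *RNF43* and *APC* were not above background on any array.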

Other observations

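The deposited series table lists 26122 of 47319 shared probe IDs with other intensities than the non-normalized table, among them 5 of the 15 member probes. Under the ID of the *NKD1* probe it holds 2627 and 2189 for HCT116-MT, against 2805 and 2135 for HCT116-WT, which are the values of the *NKD2* probe in the non-normalized table. The IDs of the *RNF43* and *ZNRF3* probes hold there the values of *RNF44* and *ZP1* probes, and the 2 *NOTUM* IDs those of the other *NOTUM* probe and of *CCN3*. Across 3312 genes with at least 2 such IDs, the log2 differences of 2 probes of a gene correlated at 0.52 in the non-normalized table and at 0.149 in the series table; genes are not independent replicates, and no test was made.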
